A study of Mus musculus with 8 samples.

Results

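The immunoglobulin heavy chain variable segments (Ighv) were the 185 genes whose symbol begins with Ighv in the GENCODE M21 mouse annotation, out of 54018 gene identifiers in the table of RNA levels. They comprised 113 functional V genes, 70 pseudogenes and 2 genes annotated as IG_LV_gene, and all lay on chromosome 12 within 2437 kb. RNA came from the spleens of leukaemic mice on the C57BL/6 strain, as mononuclear cells, and was sequenced in 8 polyadenylated RNA libraries. The genotype Kdm1aKD;Eµ-TCL1A (4 libraries, called knockdown, replicates 1, 2, 5 and 4) joined an inducible knockdown of the histone demethylase gene Kdm1a, switched on with doxycycline, to the leukaemia transgene. The genotype Eµ-TCL1A (4 libraries, called control, replicates 1, 2, 3 and 4) carried the leukaemia transgene without the knockdown. All 8 libraries thus shared the TCL1A oncogene, which the Eµ immunoglobulin enhancer drives in B cells. The labels do not give ages, do not say whether control mice received doxycycline, and do not tie each library to its own mouse, so the p-values below reflect only how much these libraries vary. Levels are in FPKM, which divides the fragments of a gene by its length and by the size of the library.

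A B cell makes its heavy chain by joining a V, a D and a J segment of the locus on chromosome 12, and transcribes the joined V from its own promoter. Daughter cells keep the same joined segment, so in a clonal B cell leukaemia a V segment marks a clone, whereas normal B cells use many. Eµ-TCL1A mice develop CD5-positive B cell leukaemias that resemble B-1 cells, a lineage known for recurrent heavy and light chain pairs directed at phosphatidylcholine, among them Ighv11-2 with Igkv14-126 and Ighv12-3 with Igkv4-91.

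The segments with the highest level in at least 1 library were Ighv11-2, Ighv1-52, Ighv1-55, Ighv2-5 and Ighv5-16, and Ighv12-3 is shown with them as the other B-1 segment. The sequences are the last 90 coding bases of each germline segment in the GENCODE M21 transcripts, 5′ to 3′. Capitals run from the codon of the conserved cysteine to the end of the segment, the side that is joined to the D segment.
Ighv11-2: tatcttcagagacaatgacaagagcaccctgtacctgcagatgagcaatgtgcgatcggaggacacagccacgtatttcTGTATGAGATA
Ighv1-52: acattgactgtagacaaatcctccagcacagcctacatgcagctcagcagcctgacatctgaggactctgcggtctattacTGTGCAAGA
Ighv1-55: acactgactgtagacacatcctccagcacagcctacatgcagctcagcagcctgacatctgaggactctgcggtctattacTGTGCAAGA
Ighv2-5: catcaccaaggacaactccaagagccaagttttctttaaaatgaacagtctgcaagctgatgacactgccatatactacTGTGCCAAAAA
Ighv5-16: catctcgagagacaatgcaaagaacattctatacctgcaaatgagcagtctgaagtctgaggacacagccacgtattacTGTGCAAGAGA
Ighv12-3: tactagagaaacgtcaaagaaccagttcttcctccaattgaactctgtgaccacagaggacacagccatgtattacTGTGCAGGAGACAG
The cysteine codon was found with the motif TANTNNTGT (N is any base), searched on the coding strand in the last 40 bases only, which 107 of the 113 functional segments hold.

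The stretches of Ighv1-52 and Ighv1-55 shown above were 97.8% identical, and their whole coding sequences 90.3%. Ighv11-2 shared 70.1% of its coding sequence with Ighv5-16, 60.7% with Ighv1-55 and 58.6% with Ighv12-3. On GRCm38, minus strand, Ighv11-2 (ENSMUSG00000096108) lies at chr12:114048241-114048812, Ighv12-3 at chr12:114366521-114366954 and Ighv5-16 at chr12:113838526-113839010. Ighv1-52 lies at chr12:115145487-115145919, Ighv1-55 (ENSMUSG00000095589) at chr12:115208095-115208591 and Ighv2-5 at chr12:113685482-113686045. The locus is transcribed towards the D segments, so the lowest coordinates are nearest to them.

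Kdm1a itself had 20.2, 21.04, 15.6 and 15.5 FPKM in knockdown replicates 1, 2, 5 and 4, against 24.2, 21.2, 24.1 and 31.1 FPKM in control replicates 1 to 4. Its groups did not overlap, and the knockdown mean was 0.719 of the control mean. The libraries held an estimated 40650400 to 47732700 fragments, and 12567 to 13138 genes reached 1 FPKM in each. Xist lay between 94.9 and 175 FPKM in the 4 knockdown libraries and at 110 FPKM in control replicate 1, and at no more than 0.128 FPKM in control replicates 2 to 4, so that group and sex were nearly the same split and cannot be told apart. Replicate 4 of each group stood apart from the others, with the lowest B cell marker level of all libraries in the knockdown one and the lowest total FPKM, 572660, in the control one. B cell marker RNA was present in all 8 libraries, as Cd79a, Cd79b and Ms4a1 together gave 905 to 2249 FPKM in knockdown and 2117 to 3051 FPKM in control libraries.

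A single segment led each library, and the leader differed among libraries of the same genotype. In the knockdown group Ighv11-2 led replicate 1 with 2623 FPKM (40.9% of all Ighv FPKM) and replicate 2 with 1610 FPKM (37.5%). Ighv1-52 led knockdown replicate 5 with 3237 FPKM (66.8%), and Ighv1-55 led knockdown replicate 4 with 1289 FPKM (61.6%). In the control group Ighv1-55 led replicate 1 with 4815 FPKM (52.1%) and replicate 3 with 6788 FPKM (89.2%). Ighv2-5 led control replicate 2 with 4268 FPKM (59.4%), and Ighv5-16 led control replicate 4 with 11766 FPKM (82.3%). Of these 5 leaders, Ighv1-55 was the segment that led libraries of both genotypes.

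**Figure D1:**
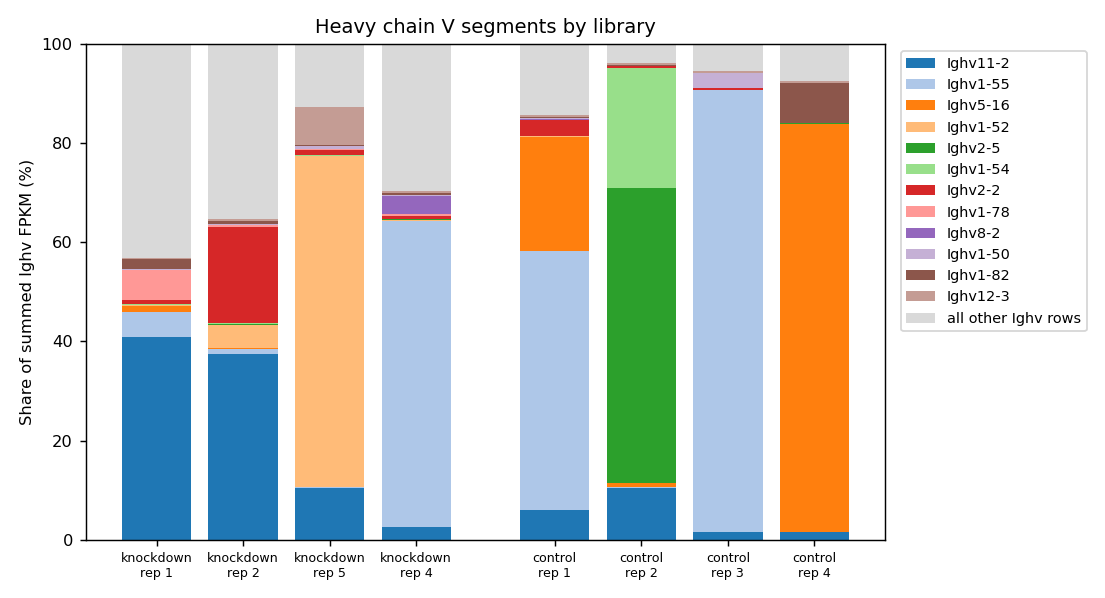
Share of the summed Ighv FPKM (vertical axis, percent) taken by 12 segments in each of the 8 libraries (horizontal axis), with every other Ighv gene in grey. Ighv1-55 takes 61.6% of knockdown replicate 4 and 89.2% of control replicate 3, while Ighv11-2 takes 40.9% and 37.5% of knockdown replicates 1 and 2.

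Several libraries held a second abundant segment. Ighv2-2 had 831 FPKM in knockdown replicate 2 (19.3% of Ighv FPKM), Ighv5-16 had 2127 FPKM in control replicate 1 (23.0%), and Ighv1-54 had 1752 FPKM in control replicate 2 (24.4%). Next in control replicate 4 were Ighv1-82 with 1161 FPKM (8.12%) and Ighv1-26 with 809 FPKM (5.66%). These segments were far lower in most other libraries. Ighv1-54, for example, lay at 2.81 to 11.3 FPKM in knockdown libraries and at 0.720 to 3.99 FPKM in the other 3 controls. In knockdown replicate 1 no second segment passed 10%, and Ighv1-78 (392 FPKM) and Ighv1-55 (320 FPKM) came next. Behind the leader of control replicate 3 were Ighv1-50 with 227 FPKM and Ighv6-6 with 130 FPKM, and behind that of knockdown replicate 4 were Ighv8-2 with 77.2 FPKM and Ighv9-3 with 68.8 FPKM.

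Ighv11-2 was among the 5 most abundant segments of all 8 libraries, which held for no other segment, Ighv1-55 following with 4 libraries and Ighv5-16 with 3. It had 2623, 1610, 510 and 55.1 FPKM in knockdown replicates 1, 2, 5 and 4, against 559, 753, 111 and 232 FPKM in control replicates 1 to 4. The first pair of knockdown libraries was above every control, the lowest value of all was also a knockdown library, and the groups overlapped. The log2 difference on log2(FPKM + 1), knockdown minus control, was 0.86 ± 1.11 (SE; limma, Benjamini-Hochberg adjusted p = 0.688). Its nearest relative, Ighv11-1, is 98.9% identical and had 78.4 FPKM in knockdown replicate 1, and 61.4% of the 50-base stretches of Ighv11-2 occur in no other Ighv transcript.

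The other leaders varied by orders of magnitude inside both groups. Ighv1-55 had 320, 44.6, 5.22 and 1289 FPKM in knockdown replicates 1, 2, 5 and 4, against 4815, 9.44, 6788 and 3.04 FPKM in control replicates 1 to 4. High and low libraries occurred in both groups, and its log2 difference was −0.89 ± 2.62 (SE; limma adjusted p = 0.873), with a sign that turned when knockdown replicate 5 (0.47), control replicate 1 (0.66) or control replicate 3 (0.82) was left out. Ighv5-16 had 72.8, 2.44, 0.687 and 2.55 FPKM in the knockdown libraries, against 2127, 54.9, 2.99 and 11766 FPKM in the controls. All 4 knockdown values were below the 2 highest controls, but the groups overlapped, and the log2 difference of −5.45 ± 2.27 (SE) had a limma adjusted p of 0.236.

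Ighv1-52 had 13.8, 203, 3237 and 3.83 FPKM in the knockdown libraries, against 23.4, 4.17, 1.45 and 0.977 FPKM in the controls. It was high in knockdown replicates 5 and 2 alone, and its log2 difference was 4.06 ± 1.79 (SE; limma adjusted p = 0.256). Ighv2-5 was high in 1 library, at 4268 FPKM in control replicate 2, with 1.98 to 7.92 FPKM in the knockdown libraries and 0.824 to 2.18 FPKM in the other controls. Without control replicate 2 its log2 difference was 1.02, against −1.67 with all 8 libraries. The nearest relatives of the leaders stayed low where the leaders were highest, with 4.37 FPKM for Ighv1-61 in knockdown replicate 5, 19.2 FPKM for Ighv1-53 in control replicate 3 and 2.51 FPKM for Ighv2-4 in control replicate 2. Of the 50-base stretches of Ighv1-52, 32.8% occur in no other Ighv transcript, the lowest share among the 5 leaders. The effect of how shared reads were assigned was not tested.

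Ighv12-3 had 15.2, 13.4, 380 and 10.6 FPKM in knockdown replicates 1, 2, 5 and 4, against 43.5, 27.9, 25.3 and 55.8 FPKM in control replicates 1 to 4. Knockdown replicate 5 was above all controls and the other 3 knockdown libraries were below all of them. The log2 difference was −0.22 ± 0.98 (SE; limma adjusted p = 0.917), and −1.41 without knockdown replicate 5 (limma adjusted p = 0.0462, against 0.151 to 0.994 over the other alternatives). Ighv7-1, the segment of the T15 idiotype against phosphorylcholine, had 6.54, 16.1, 1.02 and 2.20 FPKM in knockdown libraries, against 1.10, 0.260, 0.365 and 0.386 FPKM in controls. The groups of Ighv7-1 overlapped between knockdown replicate 5 and control replicate 1, and its log2 difference of 1.85 did not pass (limma adjusted p = 0.143). Ighv5-2, a D-proximal segment that early B cells favour, had 148 FPKM in knockdown replicate 2 and 1.10 to 4.19 FPKM in the other knockdown libraries, against at most 2.66 FPKM in controls, of which replicate 2 was listed at 0 (log2 difference 2.34, limma adjusted p = 0.292).

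Light chain V segments were read in the same libraries, and the 2 heavy and light pairs named above for B-1 cells stayed together across them. Igkv14-126, the known partner of Ighv11-2, had 9840, 7848, 1657 and 222 FPKM in knockdown replicates 1, 2, 5 and 4, against 1699, 1942, 422 and 1186 FPKM in control replicates 1 to 4. The 8 libraries fell in the same order for Igkv14-126 as for Ighv11-2. Light over heavy FPKM lay between 2.58 and 5.12 while the heavy segment varied 47.6-fold. Over 8 libraries Pearson's r on log2(FPKM + 1) was 0.984 and Spearman's rho 1, and r was 0.958 without knockdown replicates 4 and 1, the libraries farthest from the median. Among 136 light chain V genes above 0, Igkv14-126 ranked first with Ighv11-2 and Igkv4-69 came next at r = 0.833.

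Ighv12-3 and its known partner Igkv4-91 followed the same course. Igkv4-91 had 49.0, 21.9, 760 and 23.1 FPKM in the knockdown libraries, against 83.2, 50.5, 70.8 and 181 FPKM in the controls, so that both genes were highest in knockdown replicate 5. Light over heavy FPKM lay between 1.63 and 3.24 while Ighv12-3 varied 35.7-fold. Pearson's r over 8 libraries was 0.973 and rho 0.952, r was 0.903 without the farthest 2 libraries, and Igkv11-114 came next at 0.895. The Ighv12-3 pair was looked at after its values were seen, because Ighv12-3 led no library. These correlations are descriptions over libraries that share a normalization, and no test was made of them.

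**Figure D2:**
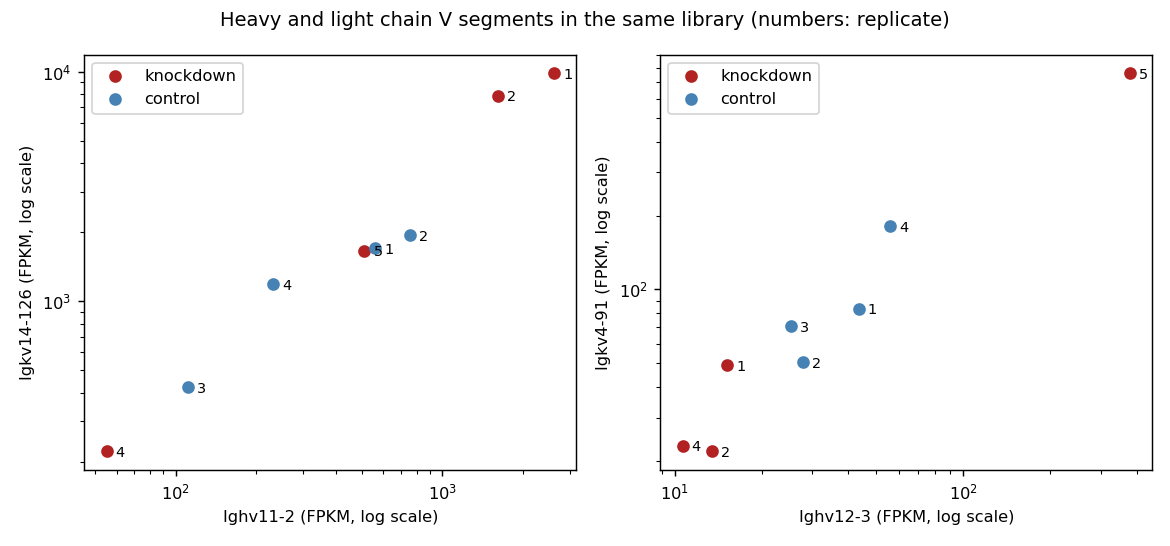
FPKM of the light chain V gene (vertical, log scale) against the heavy chain V gene (horizontal, log scale) in each library, for Ighv11-2 with Igkv14-126 (left) and Ighv12-3 with Igkv4-91 (right). The 8 libraries of the left panel keep the same order on both axes, from knockdown replicate 4 (55.1 and 222 FPKM) up to knockdown replicate 1 (2623 and 9840 FPKM).

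Among the other leaders, light segments went with Ighv1-55 and Ighv5-16 in fewer libraries. Over 8 libraries Igkv12-89 ranked 5 of 136 light chain V genes with Ighv1-55 (r = 0.797), below Igkv4-81 (0.883). Iglv2 ranked first with Ighv5-16 (r = 0.833), but its FPKM over that of Ighv5-16 lay between 0.989 and 258. With Ighv1-55 high, Igkv12-89 had 3664 FPKM in knockdown replicate 4 and 18316 FPKM in control replicate 3, which is 2.84 and 2.70 times the heavy segment. In knockdown replicates 1 and 2, with less Ighv1-55, Igkv12-89 was 2.02 and 2.30 times the heavy segment. In control replicate 1, where Ighv1-55 had 4815 FPKM, Igkv12-89 had 30.8 FPKM and the leading light segments were Iglv1 with 14936 FPKM and Iglv2 with 7990 FPKM. The same heavy segment therefore led libraries with different leading light segments. Iglv2 had 11638 FPKM in control replicate 4 beside Ighv5-16, and 5396 FPKM in control replicate 2 beside 54.9 FPKM of Ighv5-16. Igkv1-117 led the light segments of knockdown replicate 5 with 5371 FPKM. Igkv4-57 had 4482 FPKM in control replicate 2, the library with Ighv2-5, and r for this pair was 0.991 over 8 libraries and 0.848 without control replicate 2 and knockdown replicate 2. Light over heavy FPKM of this pair lay between 1.05 and 6.11 over all 8 libraries, with both genes high in control replicate 2 alone.

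Outside the Ighv genes, the 3 genes whose log2(FPKM + 1) ran most like each leader over the 8 libraries were looked up among 12810 genes. For Ighv11-2 they were Cracr2a (r = 0.993), Igkv14-126 and Ccnt2 (r = 0.979). For Ighv1-55 they were Lysmd4 (0.957), Gm13342 (0.947) and 4930522L14Rik (0.943), for Ighv5-16 Gm26704 (0.960), Wipf3 (0.953) and Wnt10a (0.947), and for Ighv1-52 Lclat1 (0.948) was among them. For Ighv2-5, whose values rest on a single high library, they were Igkv4-57, Nkiras2 (0.960) and Cacna1a (0.909). With 8 libraries and so many genes compared, values of this size are descriptions only.

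By family, the first number in the symbol, the 185 genes fell into 16 families, of which Ighv1 was the largest with 93 genes. The Ighv1 family held 36.0, 22.8, 73.3 and 74.3% of Ighv FPKM in knockdown replicates 1, 2, 5 and 4, against 63.8, 26.8, 94.7 and 15.04% in control replicates 1 to 4. The Ighv11 family of 2 genes held 42.2, 38.3, 11.4 and 2.71% in the knockdown libraries, against 6.05, 10.8, 1.46 and 1.62% in the controls. The shares of both families followed the leading segment of each library, and both overlapped between the groups.

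The Ighv5 family (22 genes) held 1.88 to 5.95% in the knockdown libraries and 0.278 to 82.4% in the controls, where Ighv5-16 carried control replicates 4 and 1. The Ighv2 family (11 genes) reached 21.5% in knockdown replicate 2 and 59.8% in control replicate 2 and stayed at or below 4.17% in the other 6 libraries. Ighv12 held 7.84% of knockdown replicate 5 and 0.238 to 0.515% in every other library. In 4 small families, Ighv4, Ighv7, Ighv9 and Ighv14, the shares did not overlap and were higher in the knockdown libraries. The Ighv9 family, for example, held 0.443 to 3.62% in knockdown against 0.0973 to 0.241% in control libraries. In FPKM, however, all 16 families overlapped between the groups or were listed at 0, so these share differences also contain the lower total of the knockdown libraries.

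Position along the locus did not separate the groups. Split at the middle gene, the D-proximal side held 65.8, 77.7, 26.7 and 27.8% of Ighv FPKM in knockdown replicates 1, 2, 5 and 4, against 37.2, 73.1, 5.39 and 85.0% in control replicates 1 to 4. Leaders lay at 113 kb (Ighv2-5), 266 kb (Ighv5-16), 475 kb (Ighv11-2), 1573 kb (Ighv1-52) and 1635 kb (Ighv1-55) from the D-proximal end of the segments.

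**Figure D3:**
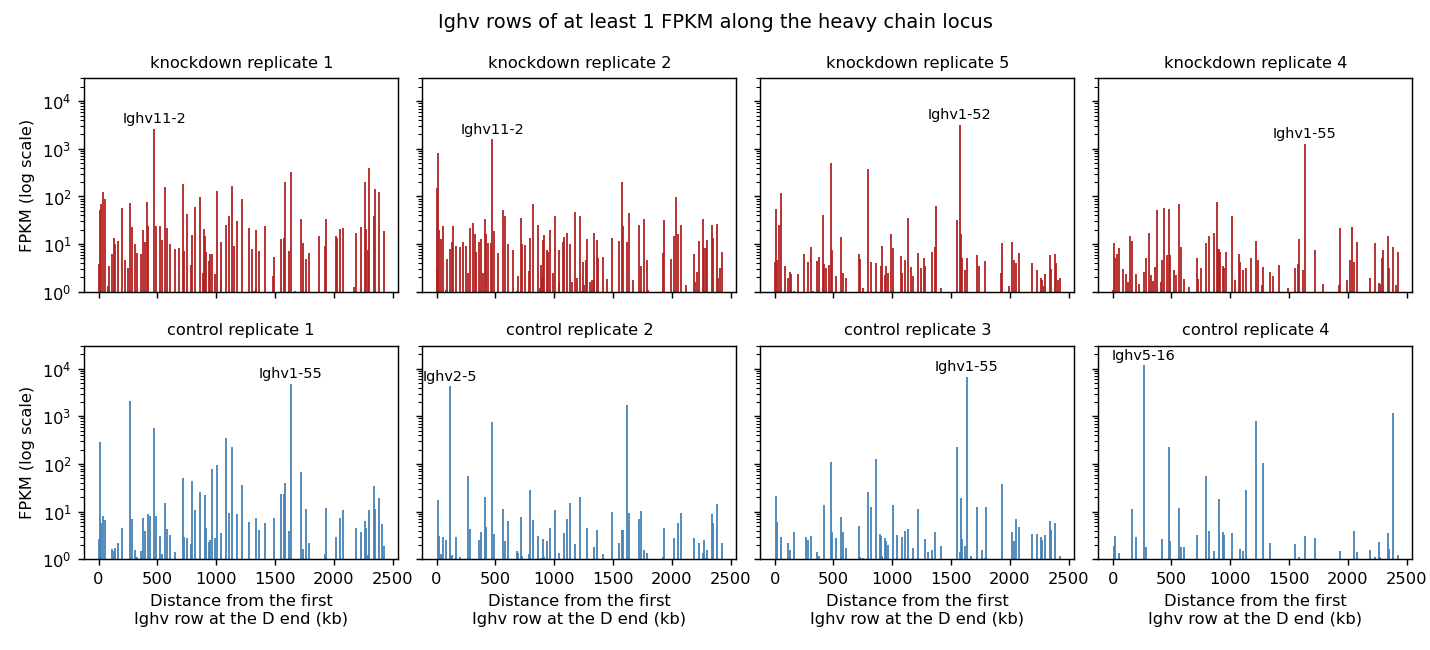
FPKM (vertical, log scale, from 1) of every Ighv gene of at least 1 FPKM in each library, against its distance in kb from the D-proximal end of the segments (horizontal), with the leading segment named. Knockdown libraries (top) show 82 to 110 such genes along the whole locus, and control libraries (bottom) show 42 to 78.

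The summed level of heavy chain V RNA was lower in the knockdown libraries, while more Ighv genes reached 1 FPKM in them. Summed Ighv FPKM was 6405, 4293, 4846 and 2092 in knockdown replicates 1, 2, 5 and 4, against 9236, 7182, 7609 and 14295 in control replicates 1 to 4. Every knockdown library was below every control. The means were 4409 ± 1785 in knockdown and 9581 ± 3265 FPKM in control libraries (SD, n = 4 each), a ratio of 0.460. The difference of mean log2 sums was −1.17, and −0.64 without replicate 4 of both groups. In bulk RNA, fewer cells of a type and less RNA per cell cannot be told apart.

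Levels of other B cell genes are given beside this sum. Ighm, the constant region gene of IgM, had 7835, 5655, 6371 and 3276 FPKM in the knockdown libraries, against 10810, 8124, 12558 and 12262 FPKM in the controls, also without overlap (log2 difference −0.97, limma adjusted p = 0.226). Ighv per Ighm FPKM lay between 0.638 and 0.818 in knockdown and between 0.606 and 1.17 in control libraries, and these overlapped. The B cell markers Cd79a, Cd79b, Ms4a1, Cd22 and Blk summed to 1048 to 2708 FPKM in knockdown and 2750 to 3628 FPKM in control libraries, with 5 of 5 log2 differences negative, 0 of 5 past the threshold (limma) and 0 at an unadjusted p under 0.05. The 8 plasma cell markers summed to 455 to 972 FPKM in knockdown and 943 to 1640 FPKM in control libraries, with 8 of 8 negative, 0 of 8 past the threshold and 5 at an unadjusted p under 0.05. The 4 B-1 cell markers, Cd5 among them, summed to 177 to 329 FPKM in knockdown and 280 to 358 FPKM in control libraries, which overlapped, and 1 of 4 had a positive log2 difference. No marker of these 3 lists was listed at 0. Relative to Cd79a, Cd79b and Ms4a1, summed Ighv FPKM was 2.09 to 3.01 in knockdown and 2.49 to 6.75 in control libraries, which overlapped. Markers of other spleen cells moved as well. The 5 neutrophil markers summed to 14.0 to 144 FPKM in knockdown and 65.0 to 440 FPKM in control libraries, and 3 of 5 fell (limma, adjusted p under 0.05), while the 3 megakaryocyte markers summed to 14.5 to 45.8 FPKM in knockdown and 3.34 to 7.62 FPKM in control libraries, and 2 of 2 tested rose. The 5 monocyte and macrophage markers summed to 260 to 612 FPKM in knockdown and 84.5 to 274 FPKM in control libraries, with 5 of 5 log2 differences positive. The 5 erythroid markers summed to 653 to 23917 FPKM in knockdown and 2266 to 6519 FPKM in control libraries. Knockdown replicate 4 gave the highest sum, with 15844 FPKM of Hbb-bs against 319 to 717 FPKM in the other knockdown libraries. T cell markers summed to 150 to 342 FPKM in knockdown and 99.4 to 307 FPKM in control libraries, and NK cell markers to 43.5 to 75.6 FPKM in knockdown and 9.27 to 92.6 FPKM in control libraries. The part of these cell types in the lower Ighv sum was not tested.

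The number of Ighv genes at 1 FPKM or more was 93, 110, 82 and 84 in knockdown replicates 1, 2, 5 and 4, against 78, 69, 67 and 42 in control replicates 1 to 4. Each knockdown library was above each control, with means of 92.3 ± 12.8 in knockdown and 64.0 ± 15.4 in control libraries (SD, n = 4 each). The mean difference was 28.3 genes, and 23.7 without replicate 4 of both groups. Counted over functional segments alone, the numbers were 91, 97, 75 and 78 in the knockdown libraries, against 77, 69, 65 and 42 in the controls, and overlapped. A relative limit over all Ighv genes did separate the groups, with 99, 117, 96 and 112 genes of at least 0.01% of Ighv FPKM in the knockdown libraries, against 78, 73, 73 and 37 in the controls. That limit was a lower FPKM in every knockdown library than in every control, because the knockdown Ighv totals were lower, so it favours higher counts there. At 5 FPKM the counts were 77, 77, 33 and 40 in knockdown libraries, against 43, 24, 19 and 10 in controls, and overlapped. The median functional segment had 10.3, 9.43, 2.46 and 2.36 FPKM in the knockdown libraries, against 2.76, 1.39, 1.43 and 0.686 FPKM in the controls, again with overlap.

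Dominance by the leading segments overlapped between the groups. The leading segment held 51.7 ± 14.6% of Ighv FPKM in knockdown and 70.8 ± 17.8% in control libraries (SD, n = 4 each). The 3 leading segments together held 52.1, 61.6, 85.1 and 68.6% in knockdown replicates 1, 2, 5 and 4, against 81.2, 94.3, 93.9 and 96.1% in control replicates 1 to 4, so that knockdown replicate 5 lay above control replicate 1. The effective number of segments, which is 1 divided by the sum of squared shares, was 5.51, 5.44, 2.15 and 2.60 in the knockdown libraries, against 3.01, 2.36, 1.25 and 1.45 in the controls. Knockdown replicates 1 and 2 were above every control, and knockdown replicates 5 and 4 lay inside the range of the controls. Outside the 3 leading segments of each library, Ighv genes summed to 3070, 1649, 720 and 657 FPKM in knockdown libraries, against 1735, 409, 465 and 559 FPKM in controls.

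**Figure D4:**
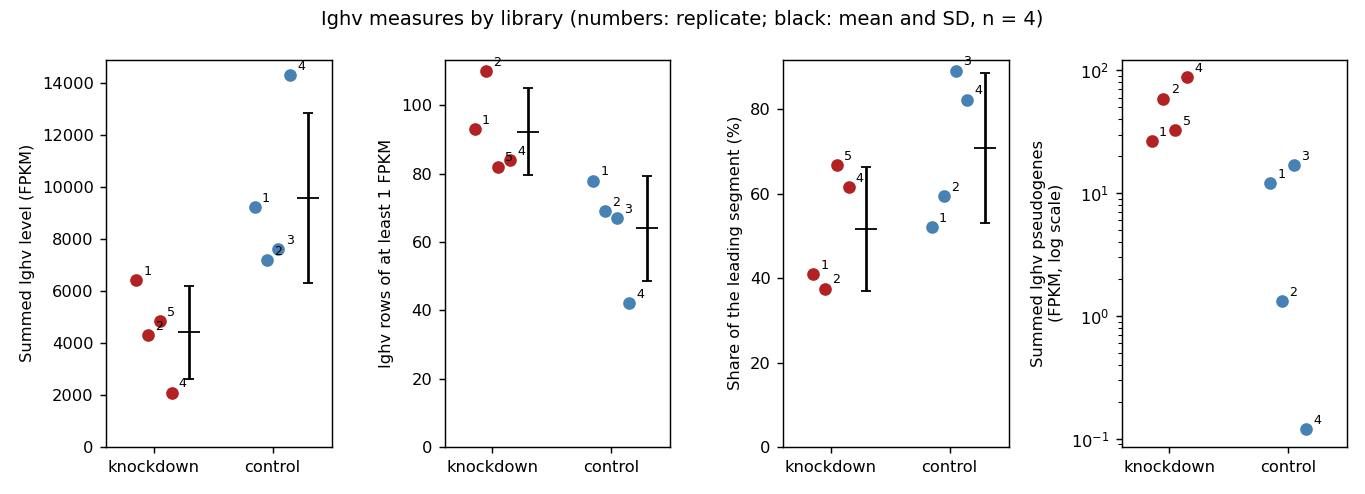
Summed Ighv FPKM, number of Ighv genes of at least 1 FPKM, share of the leading segment (percent) and summed FPKM of Ighv pseudogenes (log scale) in each library, as points numbered by replicate, with the mean and SD (n = 4) beside the first 3. Knockdown points lie below all controls in the first panel (2092 to 6405 against 7182 to 14295 FPKM), above all controls for the number of genes and for pseudogenes, and overlap them for the leading share.

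Segment by segment, most Ighv genes had a higher mean in the knockdown libraries although their sum was lower. Of all 185, 118 had a higher mean in knockdown libraries, 20 a lower one and 47 were listed at 0 in all 8. Of the 80 that reached 1 FPKM in at least 4 libraries and were tested, 69 had a positive log2 difference and the median was 1.22. The median over all 12890 genes tested was 0.13, with 63.7% positive. A segment can pass this filter through the group where it is high. Ighv5-9 alone passed with all 4 knockdown libraries and no control at 1 FPKM. Ighv1-67 and Ighv2-6 reached 1 FPKM in all 4 knockdown libraries and in a single control each (2.47 and 1.76 FPKM). The filter therefore leaned towards these segments as well. Of the 80, 5 rose past an adjusted p of 0.05 and 0 fell (limma, Benjamini-Hochberg over all genes), which is 6.25% higher, where 1.63% of all genes tested were called higher and 0.109% lower (1.74% in either direction). Without Ighv5-9 it was 4 of 79 (5.06%), a count that still holds Ighv1-67 and Ighv2-6. At an unadjusted p under 0.05, 29 were higher and 1 was lower, against 15.8% and 3.41% of all genes tested. The groups did not overlap for 11 of the 80 (13.8%), all higher in knockdown, where 11.2% of all genes tested lay so and 1.9% lay the other way. Ighv5-9, whose place there was fixed by the filter, is still counted in these 11, in the 29 and in the 69. The share of 13.8% is close to that of all genes tested.

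The count of 5 rested on single libraries. It was 0 without knockdown replicate 2 and 0 without control replicate 4, 3 when either replicate 1 library was dropped, 1 without control replicate 2 and 2 without control replicate 3. It was 7 without knockdown replicate 4, 3 without replicate 4 of both groups, and 10 without knockdown replicate 5, of which 9 were higher and 1 lower.

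None of the segments that rose led a library, although Ighv1-67 ranked 5 in knockdown replicate 2. Ighv5-9 had 3.55, 4.98, 3.47 and 3.06 FPKM in knockdown replicates 1, 2, 5 and 4, against 0.770, 0.912, 0.281 and 0.700 FPKM in control replicates 1 to 4. Its log2 difference was 1.52 ± 0.20 (SE; limma adjusted p = 0.0125), but it entered the test only because all 4 knockdown libraries passed the filter, so it had to differ and gives no support. Ighv2-9 had 10.2, 27.9, 8.75 and 16.8 FPKM in the knockdown libraries, against 1.54, 0.655, 3.06 and 0.647 FPKM in the controls, a log2 difference of 2.74 ± 0.40 (SE; limma adjusted p = 0.0152). Ighv2-6, of the same family and 93.4% identical to Ighv2-9 in coding sequence, had 10.3, 23.5, 2.34 and 15.2 FPKM in the knockdown libraries, against 1.76, 0.698, 0.523 and 0.552 FPKM in the controls (log2 difference 2.60 ± 0.54, limma adjusted p = 0.0473). In each of these segments every knockdown library was above every control, and knockdown replicate 2 was the highest.

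Both other segments that rose belonged to the Ighv1 family. Ighv1-67 had 13.2, 99.4, 4.54 and 22.6 FPKM across knockdown replicates 1, 2, 5 and 4, against 0.168, 0, 2.47 and 0.274 FPKM in the controls, with a log2 difference of 3.78 ± 0.78 (SE; limma adjusted p = 0.0471) that depends on the pseudocount because 1 library was listed at 0. Ighv1-4 had 6.71, 15.7, 9.15 and 6.92 FPKM in the knockdown libraries, against 4.56, 1.11, 1.17 and 0.549 FPKM in the controls, a log2 difference of 2.01 ± 0.40 (SE; limma adjusted p = 0.0427). Knockdown replicate 2 was again the highest library for both, and the groups did not overlap. Control replicate 1 for Ighv1-4, and control replicate 3 for Ighv1-67, came closest to the knockdown range. Ighv1-67 and Ighv1-4 are 80.6% identical in coding sequence, and all 50-base stretches of Ighv1-67 are its own. That share was 66.2% for Ighv1-4, 79.2% for Ighv2-9, 74.4% for Ighv2-6 and 86.2% for Ighv5-9. Ighv1-7, the nearest relative of Ighv1-4, is 96.9% identical to it. Within each group both were highest in the same library, with Ighv1-7 at 19.9 FPKM in knockdown replicate 2 and 79.0 FPKM in control replicate 1. The part of shared reads in these calls was not tested.

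**Figure D5:**
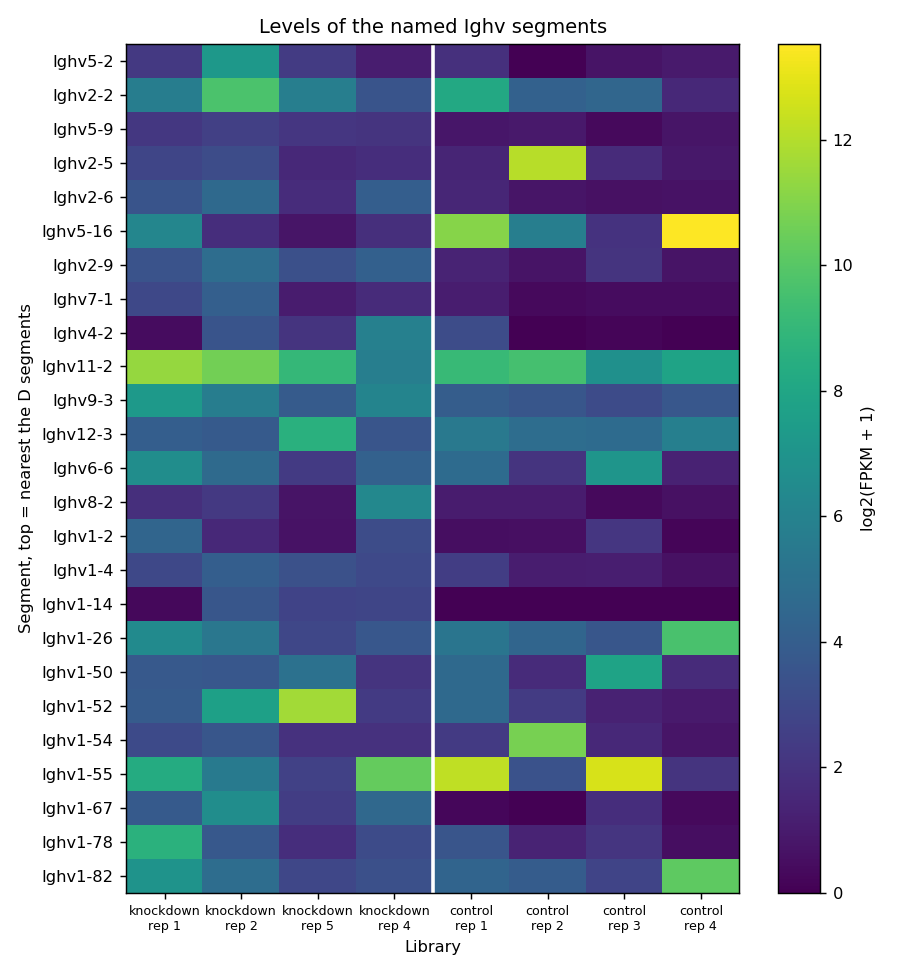
Levels of the 25 named Ighv segments (rows of the map, ordered from the D-proximal end at the top) in the 8 libraries (columns), coloured by log2(FPKM + 1). Ighv11-2 is high across all 8 libraries, the other leaders are high in 1 to 4 of them, and Ighv5-9, Ighv2-6, Ighv2-9, Ighv1-4 and Ighv1-67 are higher in the 4 knockdown columns.

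Pseudogenes of the locus had a higher summed level in the knockdown libraries, while the number detected overlapped. Of the 70 pseudogenes, 41 were listed at 0 in all 8 libraries and 29 were above 0 in at least 1, of which 24 had a higher mean in knockdown and 5 a lower one. Those above 0 numbered 13, 20, 20 and 21 in knockdown replicates 1, 2, 5 and 4, against 13, 5, 9 and 1 in control replicates 1 to 4. Their summed level was 26.5, 58.5, 32.7 and 87.8 FPKM in knockdown replicates 1, 2, 5 and 4, against 12.1, 1.32, 16.9 and 0.119 FPKM in control replicates 1 to 4. Every knockdown library was above every control, as also held without Ighv4-2, with 26.1, 48.2, 29.6 and 30.3 FPKM in knockdown libraries, against 4.15, 1.32, 16.8 and 0.119 FPKM in controls. The difference of mean log2 sums of all pseudogenes was 4.27, and 2.52 without replicate 4 of both groups. As a share of Ighv FPKM, pseudogenes held 0.414 to 4.2% in knockdown libraries and at most 0.222% in controls.

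The 3 pseudogenes of highest mean level differed in where they were high. Ighv4-2 had 0.372, 10.3, 3.09 and 57.6 FPKM in the knockdown libraries, against 7.94, 0, 0.122 and 0 FPKM in the controls. Its nearest functional relative Ighv4-1, 96.3% identical, had 52.6 FPKM in knockdown replicate 4, the library where Ighv4-2 was highest, so reads of these 2 may not be told apart. Ighv1-2 had 20.5, 1.92, 0.593 and 7.84 FPKM in the knockdown libraries, against 0.408, 0.484, 3.38 and 0.119 FPKM in the controls (log2 difference 1.61, limma adjusted p = 0.283). Ighv1-14 was listed at 0 in all 4 controls and had 0.205, 11.3, 5.63 and 6.16 FPKM in the knockdown libraries, but did not pass the filter and was not tested. Altogether 20 Ighv genes were listed at 0 in every control and above 0 in a knockdown library, and 3 the reverse. The same count was not made over all genes, so these numbers are not to be read as a trait of the locus. Some genes on either side were barely detected, such as Ighv2-7 (0.129 FPKM in knockdown replicate 1) and Ighv1-57 (0.132 FPKM in control replicate 3). Within the libraries the lowest Ighv value above 0 was 0.106 to 0.168 FPKM, so lower levels were not detectable at this depth.

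Genes that join, mutate or transcribe V segments showed no change past the threshold. Of 34 listed, 27 were tested, 0 rose and 0 fell (limma, Benjamini-Hochberg over all genes), 4 had an unadjusted p under 0.05, and the median log2 difference was −0.19 with 12 positive. For Rag1, which encodes the cutting subunit of the recombinase, values lay between 0.0552 and 0.385 FPKM in knockdown and between 0.0627 and 0.437 FPKM in control libraries. Its partner Rag2 had 0.0141 to 0.0865 FPKM in knockdown and 0.0266 to 0.148 FPKM in control libraries. Neither Rag gene reached the filter in these spleen cells.

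Pou2af1, the B cell coactivator of octamer elements in V promoters, had 126 ± 46.8 FPKM in knockdown and 205 ± 50.9 FPKM in control libraries (SD, n = 4 each; log2 difference −0.76, limma adjusted p = 0.234). In groups of the list, 3 of 7 tested rearrangement genes, 4 of 4 hypermutation genes, 1 of 1 surrogate light chain gene, 3 of 9 V promoter and locus factors and 1 of 6 receptor and surface genes had a positive log2 difference.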

How the data were processed

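Polyadenylated RNA was sequenced on a NovaSeq 6000, per the labels. The values are FPKM, as the authors deposited them, in 1 table of 54018 gene identifiers by 8 libraries. CASAVA and Cufflinks are listed, with no version, per the submitters' processing notes. Which aligner, build, annotation and strand setting were used is not given in the sources used here. Since FPKM scales by transcript length and library total, an abundant transcript lowers other values in its library, and V segments close in sequence share reads. An exact 0 can be a failed estimate, since 28 genes with a median above 10 FPKM were listed at 0 in some library. Depth was estimated from the steps of low values, of which 95.4% to 96.6% lay within 5% of a whole multiple. Of all identifiers, 53951 matched GENCODE M21 (GRCm38), the source of coordinates and sequences.

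The 12890 genes that reached 1 FPKM in 4 or more libraries were tested with limma 3.58.1 (R 4.3.3) with a mean-variance trend on log2(FPKM + 1), Benjamini-Hochberg adjusted at 0.05, with no covariate. Fold changes on this scale understate low genes. Sums, shares, family shares and effective numbers are descriptions with no test. Identities came from Biopython 1.88 alignments. Plots were drawn with matplotlib 3.10.9 and tables made with pandas 2.3.3 and numpy 2.4.6 under Python 3.11.15. On simulated data for this comparison (12890 genes, 200 changed), the fit recovered 32.3% of genes changed 2-fold, 87.5% at 4-fold and 96.0% at 8-fold. False calls over 3 runs were 7, 30 and 23 in that order. Changes were planted only in genes above a set control level, with normal noise, so these rates may not hold for segments with single high libraries.

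The members and lists were chosen with earlier results of these data known. Segments named were the 3 highest of each library, those past the threshold, the 3 highest pseudogenes, and Ighv11-2, Ighv12-3, Ighv1-55, Ighv7-1 and Ighv5-2. Some other genes that the rules and lists name are not reported here. Alternatives changed pseudocount, filter, scaling, threshold, length scaling, the genes counted, each library left out and a replicate block.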

Additional observations from a re-analysis of the deposited data

Results flagged for a closer look

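Within each group of 4 libraries, a value was picked out where its gap to the nearest other library passed the critical value of Dixon's outlier test. This held for 23 of 70 groups of values tested, all of them a library far above the others. Chance flags about 1 in 20 unselected groups of normally distributed values. FPKM and shares that vary by orders of magnitude need not follow that distribution. Most of these segments were also named because they were among the 3 highest of a library, so a high library was part of their choice. The number is therefore not to be set against that rate. No explanation of these values was tested.

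Single knockdown libraries stood far above the rest of their group for 7 segments. These were Ighv1-78 at 392 FPKM and Ighv5-16 at 72.8 FPKM in knockdown replicate 1, Ighv2-2 at 831 FPKM and Ighv5-2 at 148 FPKM in knockdown replicate 2, Ighv1-52 at 3237 FPKM and Ighv12-3 at 380 FPKM in knockdown replicate 5, and Ighv8-2 at 77.2 FPKM in knockdown replicate 4. The next knockdown library had 12.1, 2.55, 55.0, 4.19, 203, 15.2 and 3.68 FPKM for the same segments in that order.

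Single control libraries stood far above the rest of their group for abundant segments as well. Ighv2-5 had 4268 FPKM and Ighv1-54 had 1752 FPKM in control replicate 2, where the next control had 2.18 and 3.99 FPKM. Ighv1-82 had 1161 FPKM and Ighv1-26 had 809 FPKM in control replicate 4, Ighv1-50 had 227 FPKM in control replicate 3, and Ighv2-2 had 287 FPKM and Ighv1-52 had 23.4 FPKM in control replicate 1.

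At low level, control replicate 1 stood above the other controls for Ighv4-2 (7.94 FPKM), Ighv1-4 (4.56 FPKM), Ighv2-6 (1.76 FPKM) and Ighv7-1 (1.10 FPKM). Control replicate 3 did so for Ighv1-2 (3.38 FPKM) and Ighv1-67 (2.47 FPKM). Among family shares, Ighv2 stood out with 21.5% in knockdown replicate 2 and 59.8% in control replicate 2, and Ighv12 with 7.84% in knockdown replicate 5.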

How the results depend on the processing

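The count of 5 Ighv genes called was the least stable result. It was 1 with a pseudocount of 5, 1 when genes needed a mean of 5 FPKM, 2 after quantile normalization, 2 after median-of-ratios scaling, 9 at an adjusted p of 0.1, and 5 with a pseudocount of 0.1. It was 0 with no filter (limma, 40 of 138 at an unadjusted p under 0.05), 3 without replicate 4 of both groups (a choice made after seeing the data), and 0 to 10 with 1 library left out. With the replicate block it was 0 (limma, 53 of 80 at an unadjusted p under 0.05). Numbers 3 and 5 occur in 1 group only, so every difference from that fit rests on the libraries numbered 1, 2 and 4. No pairing by replicate number was seen. Deviations from the group means correlated at 0.16, 0.05 and −0.12 for numbers 1, 2 and 4, and 2 of 6 libraries correlated best with their own number. So few libraries cannot settle whether the numbers pair them. The list of 34 genes had 0 called throughout. The difference in effective number was 1.90, and 8.44 as the exponential of the Shannon entropy, and the cause was not tested. Summed Ighv FPKM stayed lower in knockdown libraries, from −1.39 to −0.85 (log2) with 1 library left out.

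Of 405 settings over the named segments, 331 kept direction and side of the threshold, 20 turned direction and 52 lost the call, all of the 5 called segments (of 16 or 17 settings each, 14 for Ighv1-67, 14 for Ighv2-6, 13 for Ighv1-4, 7 for Ighv2-9 and 4 for Ighv5-9). Another 2 gained one. Differences turned for Ighv1-55 (−2.75 to 0.82 with 1 library left out, 2.18 with the replicate block), Ighv12-3 (−1.41 to 0.26, 0.47 without replicate 4 of both groups), Ighv2-5 (−2.71 to 1.02), Ighv1-54 (−2.25 to 1.08) and Ighv1-50 (−1.06 to 0.999, 0.53 with the replicate block). Without replicate 4 of both groups they also turned for Ighv6-6 (−0.054; −0.14 to 1.77 with 1 left out), Ighv1-82 (1.19; −1.69 to 0.79) and Ighv1-26 (0.47; −1.85 to 0.17). Family share differences turned for Ighv1 (1.504 points, −10.2 to 16.4 with 1 left out, −17.7 without replicate 4 of both groups), Ighv2 (−13.6 to 6.33) and Ighv12 (−0.040 to 2.49). The cause was not tested. Without fragment counts, precision at low FPKM is unknown.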
